A study of Mus musculus with 6 samples.

Results

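Transcripts of 8 chemokines and 1 chemokine receptor were followed in cerebellar RNA of mice that carry the N153S form of STING in Purkinje cells. The genes are *Ccl2*, *Ccl3*, *Ccl4*, *Ccl6*, *Ccl9*, *Cxcl10*, *Cxcl14*, *Cx3cl1* and *Ccr1*, and their rows were taken by symbol from a table of 53746 genes. They were chosen by gene symbol with their counts and fold changes between the genotypes already known, so those values are given as a description, without p-values, and a call on any of the 9 genes says only on which side of the thresholds its value fell. Only 1 of the 9 genes, *Ccr1*, encodes a receptor, and it had at most 3 counts in any mouse. The set is therefore described as 8 chemokines and *Ccr1*, and the other chemokine receptors are given separately.

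The groups were 3 *N153S* LSL/LSL *Pcp2-cre* mice (Pcp2-cre mice) and 3 *N153S* LSL/LSL mice (control mice), all 2 months old. All 6 mice carried the *Sting1* N153S knockin behind a LoxP-Stop-LoxP cassette, and only the Pcp2-cre mice also carried Cre. *Pcp2* regulatory sequence drives Cre in Purkinje cells, so within the cerebellum the mutant protein is switched on in these neurons and not by design in microglia. In both groups mice 1 and 2 were male and mouse 3 was female. The animals were perfused with PBS and each library was made from poly A RNA of the cerebellum of 1 mouse, so every value mixes all cerebellar cell types. Values are CPM, counts scaled to library size with TMM factors, unless FPKM, which also divides by gene length, is named.

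Chemokines are small secreted or membrane-tethered proteins that attract leukocytes and microglia through G protein-coupled receptors. They are classed by the spacing of the first cysteines of the mature protein, which are adjacent in CC chemokines, separated by a single residue in CXC chemokines and farther apart in CX3C chemokines. In the brain, neurons make CX3CL1 and microglia carry its receptor CX3CR1, while CCL3 and CCL4 are typical products of activated microglia and macrophages.

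The coding sequence around these first cysteines shows the classes directly, and it is printed here to give the class of the chemokines in the set. Capitals mark the cysteine codons, and every sequence reads 5′ to 3′ on the coding strand of GRCm39 (gene models from Gencode M39). The stretches printed lie at chr11:83554296-83554325 on the forward strand (*Ccl4*), chr11:83480200-83480229 on the reverse strand (*Ccl6*), chr11:83466740-83466769 on the reverse strand (*Ccl9*), chr11:81927320-81927349 on the forward strand (*Ccl2*), chr5:92496028-92496060 on the reverse strand (*Cxcl10*), chr13:56443716-56443744 on the reverse strand (*Cxcl14*) and chr8:95504667-95504705 on the forward strand (*Cx3cl1*).
Ccl4: cctcccacttccTGCTGTttctcttacacc
Ccl6: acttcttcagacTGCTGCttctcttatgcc
Ccl9: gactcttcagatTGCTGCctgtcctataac
Ccl2: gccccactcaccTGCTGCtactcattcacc
Cxcl10: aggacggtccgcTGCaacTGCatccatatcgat
Cxcl14: ggtccaagTGTaagTGTtcccggaagggg
Cx3cl1: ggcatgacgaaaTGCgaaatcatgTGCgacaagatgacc
The cysteine codons were adjacent in *Ccl2*, *Ccl3*, *Ccl4*, *Ccl6* and *Ccl9*. They lay in exon 2 of 3 in *Ccl2*, *Ccl3* and *Ccl4* and in exon 3 of 4 in *Ccl6* and *Ccl9*. Coding identity was 69.9% between *Ccl3* and *Ccl4* and 65.9% between *Ccl6* and *Ccl9*, as a share of the longer sequence. The longest run of bases that the transcripts shared was 9 for the first pair and 25 for the second.

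Total counts lay between 6809768 and 10178218 in control mice and between 6733178 and 8572674 in Pcp2-cre mice. A single count was worth between 0.0991 and 0.149 CPM, and a floor of 3 counts per library between 0.297 and 0.447 CPM. The floor and the intervals given for ratios of counts cover counting error only. Of the 9 genes, 5 passed edgeR's filter on low counts (*Ccl3*, *Ccl6*, *Ccl9*, *Cxcl14* and *Cx3cl1*), and *Ccl2*, *Ccl4*, *Cxcl10* and *Ccr1* did not. A call required an adjusted p no higher than 0.05 and a log2 fold change beyond 0.5 in either direction. Of the genes tested, 3 were called higher in Pcp2-cre mice (*Ccl3*, *Ccl6* and *Ccl9*) and 0 lower. Over all 16961 genes tested by edgeR's quasi-likelihood test, 3.17% were called, 1.37% higher and 1.79% lower, and 7.74% passed the adjusted p at any fold change. Because the genes were chosen with this comparison known, nothing is read from their count.

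In controls 1 and 2 the choroid plexus markers summed to 778 and 1210 CPM, against 17.7 CPM in control 3 and 9.61 to 72.5 CPM in Pcp2-cre mice, so these 2 control libraries stand apart. For called genes, a call lost or a fold moved by over 1.5 times without a control mouse, or with a choroid plexus score in the fit, is given beside the gene.

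The clearest differences were in 4 CC chemokines, *Ccl3*, *Ccl4*, *Ccl6* and *Ccl9*, which had low counts in control cerebella and were above the floor in each Pcp2-cre cerebellum. *Ccl3* encodes macrophage inflammatory protein 1-alpha, a ligand of CCR1. It had read counts of 0, 0 and 2 in controls 1, 2 and 3 and 22, 19 and 16 in Pcp2-cre animals 1, 2 and 3, the order kept for all counts below. The Pcp2-cre mice did not overlap the controls, and both counts of the control group came from mouse 3, the deepest library. On the CPM scale the mean of controls was 0.0661 ± 0.114 and that of Pcp2-cre mice 2.49 ± 0.367 (SD, n = 3 each). Summed over mice, 57 counts against 2 made a ratio of 30.7 after scaling to library size (95% exact interval 8.13 to 260). The fitted log2 fold change was 4.70 ± 0.575 (SE), and it was 7.23 without control mouse 3, when every remaining control was at 0 counts. It was 3.94, and still called, with a choroid plexus score as a covariate, an alternative chosen after seeing the data. In bulk tissue, more cells of a type and more RNA per cell cannot be told apart, here and for every gene below.

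*Ccl4* encodes macrophage inflammatory protein 1-beta and is the closest neighbour of *Ccl3* in sequence and position. It was at 0 counts in all 3 controls and had read counts of 10, 9 and 11 in Pcp2-cre animals 1, 2 and 3. All Pcp2-cre mice were thus above all controls, and within the Pcp2-cre group the 3 counts were nearly equal. The level in Pcp2-cre mice was 1.33 ± 0.294 CPM (SD, n = 3), at least 3.56-fold higher than the mean of the control libraries' floors. Too few counts were present for the edgeR filter, so *Ccl4* was not tested with all mice. It passed the filter and was called higher without control mouse 1, 2 or 3 or without Pcp2-cre mouse 2. With 0 counts in every control, *Ccl4* could pass that filter only through the Pcp2-cre mice. These calls therefore add no support to the counts. The ratio of *Ccl4* to *Ccl3* counts within a library was 0.455, 0.474 and 0.688 in Pcp2-cre mice 1, 2 and 3.

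*Ccl6* encodes a CC chemokine found in rodents that acts on CCR1. It had read counts of 2, 5 and 5 in controls and 37, 36 and 34 in Pcp2-cre animals. The groups lay far apart, and the 3 Pcp2-cre mice were close to each other. The level was 0.496 ± 0.248 in control against 4.69 ± 0.466 CPM in Pcp2-cre mice (SD, n = 3 each), with a log2 fold change of 3.23 ± 0.324 (SE). With each mouse left out in turn the log2 fold change of *Ccl6* ranged from 2.93 to 3.54.

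*Ccl9* encodes the rodent chemokine known as macrophage inflammatory protein 1-gamma, another ligand of CCR1, and lies next to *Ccl6*. It had read counts of 3, 2 and 9 in controls and 14, 14 and 11 in Pcp2-cre animals. On the CPM scale these were 0.374, 0.298 and 0.892 against 1.84, 1.62 and 1.63, so the groups did not overlap although control mouse 3 came nearest. The mean was 0.521 ± 0.323 in control against 1.70 ± 0.128 CPM in Pcp2-cre mice (SD, n = 3 each), with a log2 fold change of 1.57 ± 0.410 (SE). Of the 3 called CC chemokines, *Ccl9* had the call that depended most on single libraries. It was no longer called without control mouse 1 or 2 or any 1 of the Pcp2-cre mice, at log2 fold changes between 1.34 and 1.61, and was called at 2.26 without control mouse 3. With the choroid plexus score as a covariate its log2 fold change was 0.98 and it was not called, nor was it called by DESeq2 (1.63) or by limma on either log2 FPKM scale.

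The ratio of *Ccl6* to *Ccl9* counts was 0.667, 2.5 and 0.556 in the control mice and 2.64, 2.57 and 3.09 in the Pcp2-cre mice. The Pcp2-cre mice were therefore alike in the balance of these 2 neighbouring genes. The control ratios rest on 2 to 9 counts each.

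**Figure D1:**
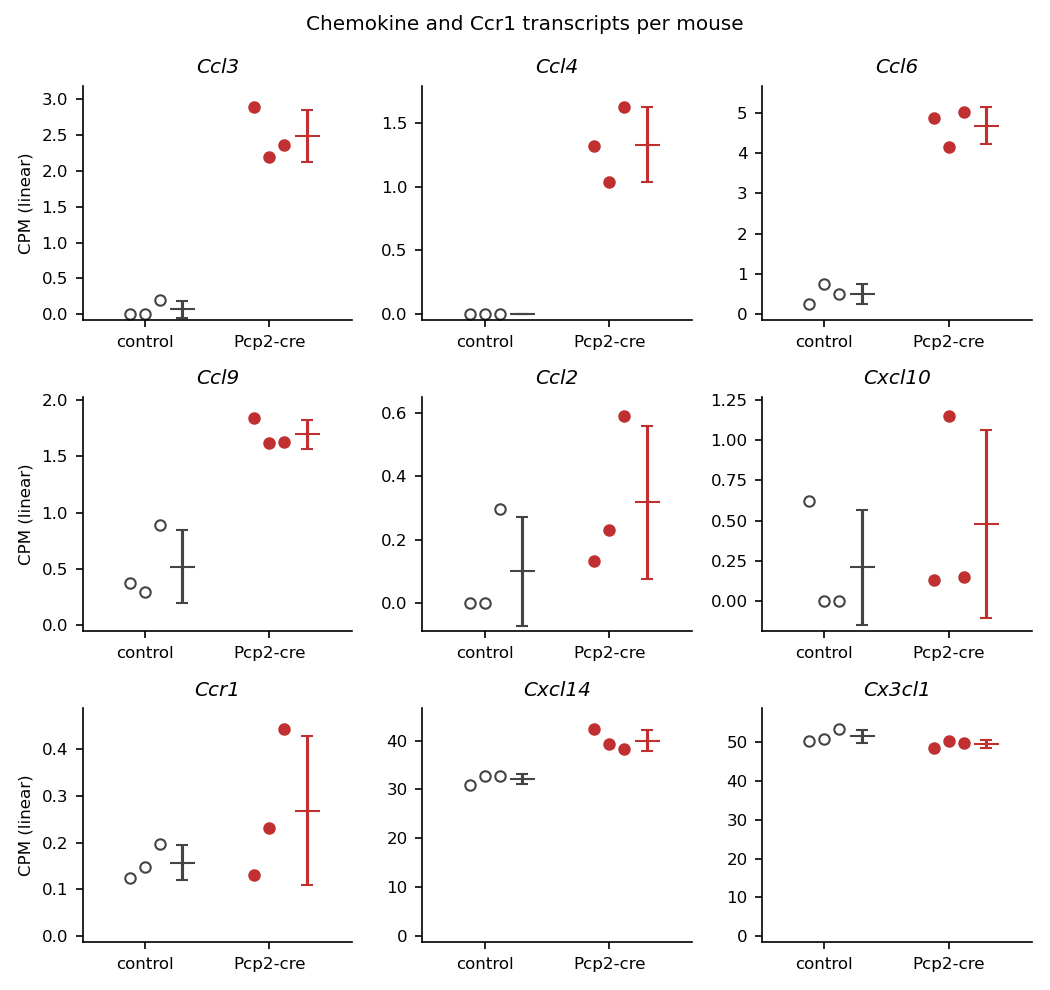
Level of each chemokine and of *Ccr1* in each mouse, in CPM on linear axes that differ between panels. Open circles are control mice 1, 2 and 3 from left to right, filled circles Pcp2-cre mice 1, 2 and 3, and the bar beside each group is the mean ± SD (n = 3). The groups are apart for *Ccl3*, *Ccl4*, *Ccl6*, *Ccl9* and *Cxcl14* and overlap for the other 4 genes.

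*Ccl2* and *Cxcl10* had at most 10 counts in any mouse, and neither separated the genotypes. *Ccl2* encodes the monocyte attractant MCP-1, the main ligand of CCR2. It had read counts of 0, 0 and 3 in controls and 1, 2 and 4 in Pcp2-cre animals, and the groups overlapped. The summed counts, 7 against 3, made a ratio of 2.52 with a 95% exact interval of 0.575 to 15.1. *Cxcl10* encodes an interferon-induced attractant of T cells that acts on CXCR3. Its read counts were 5, 0 and 0 in controls and 1, 10 and 1 in Pcp2-cre animals. Each group thus had a single mouse that held most of its counts, control mouse 1 and Pcp2-cre mouse 2, and the groups overlapped. The summed ratio for *Cxcl10* was 2.59 with an interval of 0.849 to 9.38. At this depth a difference in *Ccl2* or *Cxcl10* was not detectable.

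*Cxcl14* and *Cx3cl1* were the abundant chemokines of the set. *Cxcl14* encodes a homeostatic CXC chemokine that is also expressed in the healthy brain. It had 30.9, 32.8 and 32.7 CPM in the control mice and 42.4, 39.2 and 38.3 CPM in the Pcp2-cre mice, from 220 to 340 counts per library. Every Pcp2-cre mouse was above every control, and the gap between the groups was wider than the range within either group. The means were 32.1 ± 1.03 and 40.0 ± 2.14 CPM (SD, n = 3 each), a log2 fold change of 0.32 ± 0.0732 (SE), under the fold threshold for a call. Without single mice the log2 fold change of *Cxcl14* ranged from 0.27 to 0.34.

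*Cx3cl1* encodes fractalkine, the membrane-tethered chemokine of neurons. It had 50.3, 50.9 and 53.5 CPM in the control mice and 48.5, 50.3 and 49.9 CPM in the Pcp2-cre mice. The groups overlapped, at 51.6 ± 1.71 and 49.6 ± 0.967 CPM (SD, n = 3 each), and the log2 fold change was -0.06 ± 0.0618 (SE). The ratio of *Cxcl14* to *Cx3cl1* CPM, in which the scaling of the libraries cancels, was 0.623 ± 0.0175 in control and 0.808 ± 0.0585 in Pcp2-cre mice (SD, n = 3 each), without overlap.

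*Ccr1* encodes a receptor for CCL3, CCL6 and CCL9. Its read counts were 1, 1 and 2 in controls and 1, 2 and 3 in Pcp2-cre animals. All 6 values lay at or under the floor, so no fold is given.

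For 5 of the 9 genes the lowest Pcp2-cre mouse exceeded the highest control, and 0 genes showed the opposite. Across the 30470 genes with a count in any mouse, 7.7% had all Pcp2-cre mice above. Among the 16961 genes tested, 10.8% had all Pcp2-cre mice above and 11.4% all below.

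Levels can be compared between genes on the FPKM scale, which the authors deposited as a separate table. *Cxcl14* stood highest in control mice at 17.3 ± 0.350 FPKM (SD, n = 3), followed by *Cx3cl1* at 13.8 ± 0.728 FPKM (SD, n = 3), and their ranges were apart. *Ccl6* came next at 0.256 ± 0.0718 FPKM (SD, n = 3), and from *Ccl6* down through *Ccl9*, *Ccl3*, *Cxcl10*, *Ccl2*, *Ccl4* and *Ccr1* all neighbours in the order overlapped. In Pcp2-cre mice *Cxcl14* (21.4 ± 1.60 FPKM) and *Cx3cl1* (13.4 ± 0.996 FPKM) kept the first places and were again apart. After these came *Ccl6* at 2.93 ± 0.348 FPKM and *Ccl3* at 2.60 ± 0.492 FPKM (SD, n = 3 each), whose ranges overlapped.

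*Ccl4* followed in Pcp2-cre mice at 1.22 ± 0.107 FPKM, apart from *Ccl3* above it and from *Ccl9* (0.507 ± 0.0465 FPKM) below it. *Ccl9* overlapped *Cxcl10*, which had 0.160, 0.674 and 0.381 FPKM in Pcp2-cre mice 1, 2 and 3. *Ccl2*, with 0, 0.130 and 0.289 FPKM, overlapped both *Cxcl10* above it and *Ccr1*, with 0.0556, 0.0279 and 0.0822 FPKM, below it. The lowest chemokines thus could not be ordered. The 2 tables were made separately, and for control mouse 2 the FPKM table lists *Ccl3* at 0.294 and *Ccl4* at 0.157 where the count table has 0 counts.

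**Figure D2:**
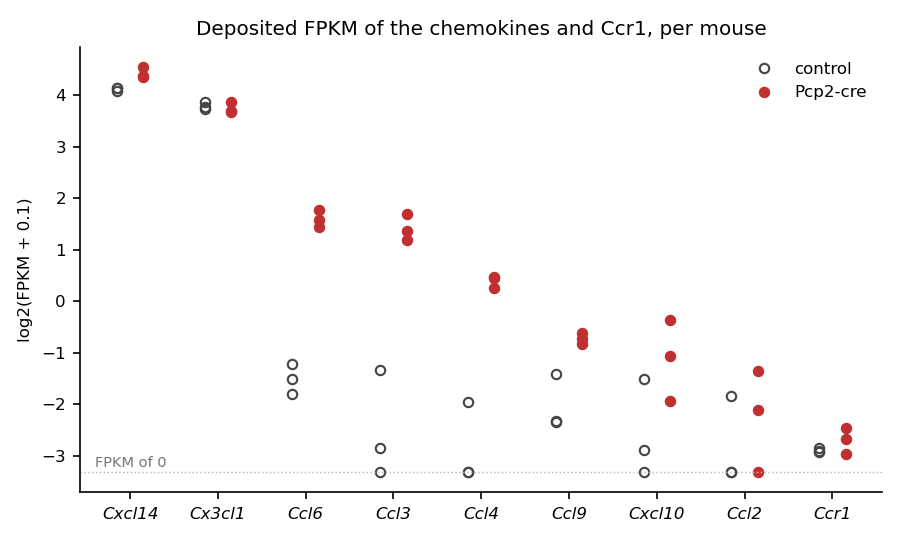
Deposited FPKM of the 8 chemokines and *Ccr1* in each mouse, as log2(FPKM + 0.1), ordered by the mean in Pcp2-cre mice. Open circles are control and filled circles Pcp2-cre mice, and the dotted line marks an FPKM of 0. *Cxcl14* and *Cx3cl1* stand far above the rest in both groups, and *Ccl6*, *Ccl3* and *Ccl4* form the next tier in Pcp2-cre mice only.

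The 4 CC chemokines lie in 1 stretch of chromosome 11, in the order *Ccl9* (GRCm39 chr11:83463745-83473161, reverse strand), *Ccl6* (chr11:83478708-83483913, reverse), *Ccl3* (chr11:83538670-83540191, reverse) and *Ccl4* (chr11:83553383-83555509, forward). Measured between the outermost annotated gene starts, *Ccl9* is 67.0 kb and *Ccl6* 56.3 kb on 1 side of *Ccl3*, and *Ccl4* 13.2 kb on the other. *Ccl5*, which encodes the T cell attractant RANTES, is the next chemokine beyond *Ccl9*. It had read counts of 1, 2 and 0 in controls and 4, 4 and 1 in Pcp2-cre animals, and the groups overlapped in CPM. In FPKM the groups of *Ccl5* were apart, at 0, 0.261 and 0.194 in controls and 0.335, 0.343 and 0.290 in Pcp2-cre mice. *Taf15*, a general transcription factor gene 176 kb from *Ccl3*, had a log2 fold change of 0.0032 (edgeR adjusted p = 0.986). *Mmp28*, a matrix protease gene 186 kb away, had a log2 fold change of -0.39 (edgeR adjusted p = 0.349). On the other side, *Wfdc17* was at 0 in all controls and had read counts of 1, 4 and 3 in Pcp2-cre animals. *Wfdc18*, the next gene, had read counts of 3, 0 and 3 in controls and 2, 1 and 1 in Pcp2-cre animals.

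*Ccl2* (chr11:81926397-81928279, forward strand) is in a separate chemokine group on the same chromosome. Exons of *Ccl3* share 276 bases with *Gm53692*, a long noncoding RNA gene on the opposite strand, which was not analysed here. Exons of *Cxcl10* share 133 bases with *Art3* and those of *Cx3cl1* 427 bases with *1700121C10Rik*, both on the opposite strand. The use of strand in counting is not given in the sources used here, so reads in these bases cannot be assigned with certainty.

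**Figure D3:**
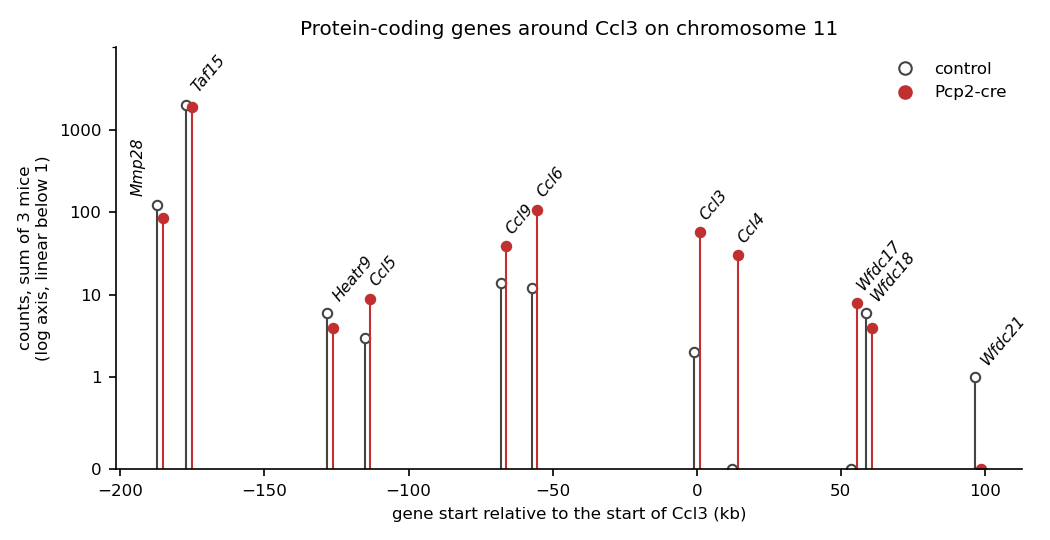
Counts of the protein-coding genes around *Ccl3*, summed over 3 mice per genotype, against the distance of each gene start from the start of *Ccl3* in kb. The vertical axis is logarithmic above 1 and linear below. Open circles are control and filled circles Pcp2-cre mice, and the 4 CC chemokines stand higher in Pcp2-cre mice while *Taf15* is level.

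The 250 bases before the canonical transcript of each of these 4 genes are printed because the genes lie together and were all higher in Pcp2-cre mice. They are from GRCm39 in the direction of transcription and end at the base before the start of that transcript, which for *Ccl9* lies inside the gene, downstream of the outermost start used for the distances. They lie at chr11:83540192-83540441 (*Ccl3*, reverse strand), chr11:83553133-83553382 (*Ccl4*, forward), chr11:83483914-83484163 (*Ccl6*, reverse) and chr11:83469468-83469717 (*Ccl9*, reverse). Capitals mark the single match to the NF-kB consensus.
Ccl3: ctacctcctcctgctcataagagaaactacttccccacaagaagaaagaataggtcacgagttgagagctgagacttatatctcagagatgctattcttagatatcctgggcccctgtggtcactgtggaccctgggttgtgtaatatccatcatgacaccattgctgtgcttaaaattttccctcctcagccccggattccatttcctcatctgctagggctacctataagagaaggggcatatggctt
Ccl4: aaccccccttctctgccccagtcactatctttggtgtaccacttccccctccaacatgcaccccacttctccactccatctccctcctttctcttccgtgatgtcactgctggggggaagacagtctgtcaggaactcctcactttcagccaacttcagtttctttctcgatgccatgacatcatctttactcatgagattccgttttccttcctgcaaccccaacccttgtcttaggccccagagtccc
Ccl6: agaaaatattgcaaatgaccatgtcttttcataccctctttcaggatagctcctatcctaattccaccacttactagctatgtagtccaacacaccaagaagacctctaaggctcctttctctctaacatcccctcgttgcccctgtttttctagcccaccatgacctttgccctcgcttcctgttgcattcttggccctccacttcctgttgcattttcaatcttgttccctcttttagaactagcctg
Ccl9: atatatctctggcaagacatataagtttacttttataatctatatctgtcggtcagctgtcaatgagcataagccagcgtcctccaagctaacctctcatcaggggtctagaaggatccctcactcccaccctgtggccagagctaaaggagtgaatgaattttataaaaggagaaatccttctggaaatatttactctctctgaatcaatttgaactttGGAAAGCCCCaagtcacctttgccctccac
The match in *Ccl9* lay from 30 to 21 bases before the start. Of the 9 genes, *Ccl9*, *Cxcl10* and *Ccr1* held a match on either strand, against 7.62% of 21770 promoters of protein-coding genes. In *Cxcl10* there were 3 matches, 2 of which overlap each other. The PU.1-type motif GAGGAAGT occurred in 0 of the 9 windows and in 2.08% of all promoters, and the C/EBP-type motif TTGCNNAA in 0 of the 9 and in 9.34%. TATAAA occurred in the *Ccl9* window alone and in 11.9% of all promoters. A match is a description of letters and does not show binding.

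The receptors other than *Ccr1* lie outside the chosen set, and their test results are given. The lists of receptors, other ligands, sheddases and signalling genes were drawn up with earlier results of these data known. The adjusted p-values of their genes are therefore not independent of that choice. *Cx3cr1*, the microglial receptor of fractalkine, was 2.8 times as abundant in Pcp2-cre mice. *Cx3cr1* had read counts of 86, 63 and 111 in controls and 229, 242 and 202 in Pcp2-cre animals. The groups were far apart, at 10.4 ± 0.866 and 29.3 ± 1.21 CPM (SD, n = 3 each). The log2 fold change was 1.48 ± 0.0995 (SE; edgeR adjusted p = 1.12e-09), higher in 3 of 3 Pcp2-cre mice than in any control. *Cx3cr1* was called under all 17 alternatives. The ratio of *Cx3cl1* to *Cx3cr1* CPM was 4.99 ± 0.388 in control and 1.69 ± 0.0995 in Pcp2-cre mice (SD, n = 3 each), without overlap, with the ligand level in the numerator and the receptor level in the denominator.

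Of 22 receptor genes other than *Ccr1*, 7 were tested, 1 was called higher (*Cx3cr1*) and 0 lower. The median log2 fold change of the 7 was 0.09. *Ccrl2*, an atypical receptor, had a log2 fold change of 0.70 ± 0.444 (SE; edgeR adjusted p = 0.453), which was 0.30 without control mouse 1 and 1.17 without control mouse 2. *Cxcr4*, the receptor of CXCL12, had read counts of 13, 7 and 17 in controls and 14, 17 and 19 in Pcp2-cre animals, a log2 fold change of 0.55 ± 0.304 (SE; edgeR adjusted p = 0.374). *Ccr10*, *Ackr1*, *Ackr3* and *Ackr4* had log2 fold changes from 0.05 to 0.09, were not called, and each changed sign under at least 1 alternative. Exons of *Ackr1* share 361 bases on the same strand with *Cadm3*, a gene at 1041 CPM in control mice, so its counts may hold *Cadm3* reads.

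The receptor genes next to *Ccr1* on chromosome 9 were low. *Ccr1l1* and *Ccr3*, whose coding sequences are 76.6% and 69.5% identical to that of *Ccr1*, had 0 counts in all 6 mice. *Ccr2*, the receptor of CCL2 on monocytes, had read counts of 3, 0 and 0 in controls and 3, 3 and 3 in Pcp2-cre animals. *Cxcr3*, the receptor of CXCL10, had 0 counts in all 6 mice. In total 13 of the 22 receptors were at or under 3 counts in every mouse, 8 of them at 0.

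Among the 32 chemokine ligand genes outside the set, 5 passed the filter and 0 were called by edgeR, and 0 by DESeq2 or by limma on log2 FPKM. At an unadjusted p under 0.05 there was 1 in edgeR, *Cxcl16*, a membrane-tethered ligand of CXCR6. *Cxcl16* had read counts of 12, 19 and 26 in controls and 25, 29 and 32 in Pcp2-cre animals. In CPM every Pcp2-cre mouse was above every control, at 2.30 ± 0.707 and 3.79 ± 0.817 (SD, n = 3 each). The log2 fold change was 0.70 ± 0.261 (SE; edgeR adjusted p = 0.125). Its exons overlap those of *Med11* and *Zmynd15* on the opposite strand. *Cxcl12*, the ligand of CXCR4, had 48.1 ± 2.73 against 52.2 ± 2.24 CPM (SD, n = 3 each, control first), a log2 fold change of 0.12 (edgeR adjusted p = 0.375). *Ccl25* (0.23), *Ccl21b* (0.11) and *Ccl27a* (-0.06) had small log2 fold changes and were not called, and those of *Ccl21b* and *Ccl27a* changed sign under at least 1 alternative. The median log2 fold change of the 5 was 0.12. Of the 32 genes, 16 were at or under 3 counts in every mouse and 6 of these at 0, so these 16 were not measurable here.

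**Figure D4:**
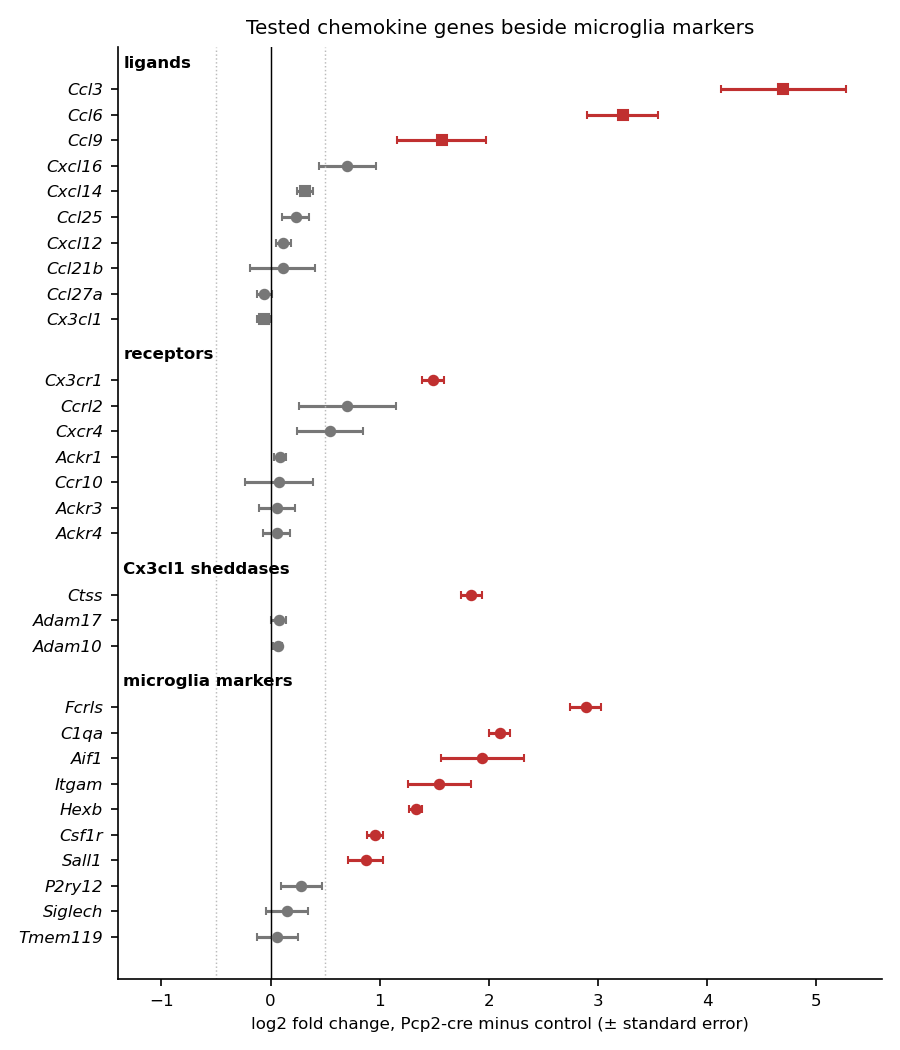
Log2 fold change, Pcp2-cre minus control, with its standard error from edgeR for the reported chemokine ligands, receptors, *Cx3cl1* sheddases and microglia markers that passed the filter. Squares are the chosen chemokines, circles other genes, red marks a call and dotted lines a log2 fold change of 0.5 in size. *Ccl3* was fitted at 4.70, *Ccl6* at 3.23 ± 0.324 (SE) and the highest microglia marker, *Fcrls*, at 2.89. The *Ccl3* value rests on control counts at or under the floor. The chosen genes were picked with their folds known, and their order against the markers was not tested.

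CX3CL1 is released from the membrane by proteases. *Ctss*, the microglial protease cathepsin S, rose from 16.6 ± 1.90 to 58.8 ± 6.53 CPM (SD, n = 3 each), a log2 fold change of 1.84 ± 0.0959 (SE; edgeR adjusted p = 3.26e-11). *Adam10* and *Adam17*, the general sheddases, had log2 fold changes of 0.06 ± 0.0422 (SE; edgeR adjusted p = 0.484) and 0.08 ± 0.0676 (SE; edgeR adjusted p = 0.642).

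Of 32 genes that act below chemokine receptors, 28 were tested, 3 were called higher and 1 lower, and their median log2 fold change was 0.06. *Dock2*, the Rac activator that drives leukocyte migration, rose from 1.52 ± 0.364 to 4.92 ± 0.875 CPM (SD, n = 3 each), with a log2 fold change of 1.71 (edgeR adjusted p = 8.13e-05). *Vav1*, a haematopoietic exchange factor for small GTPases, rose from 1.12 ± 0.241 to 4.47 ± 0.452 CPM (SD, n = 3 each), a log2 fold change of 1.97 (edgeR adjusted p = 1.88e-05). *Pik3cg*, the G protein-activated PI3 kinase subunit, had a log2 fold change of 1.23 (edgeR adjusted p = 0.0159). The *Pik3cg* call was lost without control mouse 2 (1.10, edgeR adjusted p = 0.0680), control mouse 3 (1.13, 0.0685), Pcp2-cre mouse 2 (1.18, 0.0979) or Pcp2-cre mouse 3 (1.20, 0.0691), and with the choroid plexus score as a covariate (1.39, 0.0678). *Plcb3*, a phospholipase C gene that Purkinje cells also express, fell from 87.0 ± 4.68 to 53.2 ± 4.22 CPM (SD, n = 3 each), a log2 fold change of -0.71 (edgeR adjusted p = 4.02e-08). Purkinje cell markers were lower too, with 4 of 5 called lower and a summed level of 5725 to 6283 CPM in control against 3046 to 3369 CPM in Pcp2-cre mice. Their part in the *Plcb3* value was not tested.

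*Ccl3*, *Ccl4*, *Ccl6* and *Ccl9* were higher in the Pcp2-cre group, in which the summed microglia markers were higher too. Of 10 microglia markers 7 were called higher and 0 lower, and their summed level was 108 to 112 CPM in control against 262 to 287 CPM in Pcp2-cre mice. *Tmem119*, *P2ry12* and *Siglech*, which mark microglia at rest, were not called, at log2 fold changes of 0.06, 0.28 and 0.15. The summed level of *Ccl3*, *Ccl4*, *Ccl6* and *Ccl9* was 0.624, 1.04 and 1.59 CPM in the control mice and 10.9, 9.003 and 10.7 CPM in the Pcp2-cre mice. Control mouse 1 had the highest marker sum and the lowest chemokine sum of its group, and Pcp2-cre mouse 1 the reverse. The control marker sums were nearly equal, the control chemokine sums rest on few counts, and each group had 3 mice. Whether the 2 sums rise together within a group could therefore not be judged. The part of the microglia level in these 4 chemokines was not tested.

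Set against the summed microglia markers, *Ccl3*, *Ccl4* and *Ccl6* separated the genotypes and *Ccl9* did not. *Ccl3* came to 0.598 ± 1.04 CPM per 1000 CPM of microglia markers in control and 9.22 ± 1.61 in Pcp2-cre mice (SD, n = 3 each). *Ccl6* came to 4.54 ± 2.33 in control and 17.3 ± 1.44 in Pcp2-cre mice on the same scale, from 2.23 to 6.89 against 15.8 to 18.6, without overlap. *Ccl4* was at 0 in control and at 4.88 ± 0.872 in Pcp2-cre mice. *Ccl9*, in contrast, had 4.73 ± 2.92 and 6.29 ± 0.701 per 1000 CPM, and its groups overlapped. *Cx3cr1* had 94.2 ± 6.64 and 108.5 ± 5.97 without overlap. *Ccl3*, *Ccl4* and *Ccl6* were thus higher relative to the summed markers, and *Ccl9* was not separable from that sum. The sum includes the uncalled *Tmem119*, *P2ry12* and *Siglech*, and the ratio to each single marker was not examined. What these ratios come from was not tested.

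**Figure D5:**
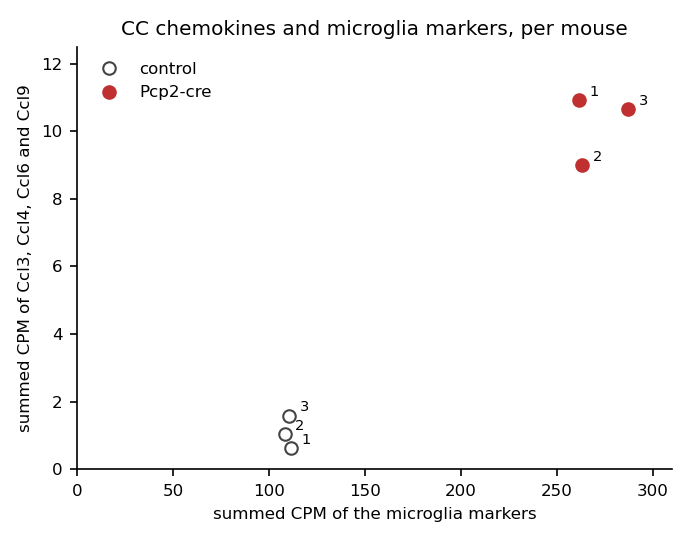
Summed CPM of *Ccl3*, *Ccl4*, *Ccl6* and *Ccl9* against the summed CPM of 10 microglia markers, 1 point per mouse with its number. Open circles are control and filled circles Pcp2-cre mice. The Pcp2-cre mice lie at 262 to 287 CPM of markers and 9.003 to 10.9 CPM of chemokines, and the controls at 108 to 112 and 0.624 to 1.59 CPM.

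Markers of other blood and border cells were low, apart from *Vcan*. Border macrophage markers summed to 8.93 to 11.8 CPM in control against 10.8 to 14.7 CPM in Pcp2-cre mice, with 0 of 5 called. Neutrophil markers summed to 1.19 to 3.12 and 1.18 to 4.21 CPM and B cell markers to 0.298 to 0.892 and 0.790 to 1.04 CPM, and no gene of either list passed the filter. Monocyte markers summed to 35.3 to 42.7 and 45.3 to 48.4 CPM, nearly all of it *Vcan*, so the sum describes that gene rather than monocytes. In that list 1 gene was tested, at a log2 fold change of 0.26. It passed edgeR's adjusted p but not the fold threshold. *Plac8* had 0 counts in 5 of 6 mice and the groups of *Ly6c2* overlapped. T cell markers summed to 1.25 to 1.78 CPM in control against 2.24 to 3.23 CPM in Pcp2-cre mice. Within that list *Cd3g* was at 0 in all mice and *Trbc2* was at 0 in all controls and had read counts of 3, 9 and 4 in Pcp2-cre animals. Their part in the chemokine values was not tested.

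Among the resident cells, astrocyte markers summed to 2775 to 2879 CPM in control against 2871 to 2910 CPM in Pcp2-cre mice. Of the 6 markers, 2 were called higher, *Gfap* among them, and 0 lower. For 3 of the 6 every Pcp2-cre mouse was below every control, and the median log2 fold change of the list was -0.07. Granule cell markers summed to 2404 to 2555 and 2546 to 2665 CPM, oligodendrocyte markers to 2753 to 2855 and 3271 to 3439 CPM, and endothelial markers to 124 to 132 and 134 to 139 CPM, with 0 called in these 3 lists. The oligodendrocyte and endothelial sums did not overlap between the groups, as was also the case for *Cxcl14*. Their part in the *Cxcl14* value was not tested.

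The genes whose log2 CPM followed each chemokine most closely over the 6 mice are given as a description, since all 6 points share the genotype split. For *Ccl3* they were *Gm37824* (Pearson r 0.997), *Arhgap30* (0.996) and *Tlr1* (0.994). For *Ccl6* they were *Nckap1l* (0.999), *Rpl28-ps1* (0.997) and *Map4k4* (0.996), and for *Ccl9* *Ndrg1* (0.996), *Mical1* (0.993) and *Plat* (0.992). *Arhgap30*, *Tlr1* and *Nckap1l* are known from haematopoietic cells. No such cell type is assigned here to *Gm37824*, *Rpl28-ps1*, *Map4k4* or any of the genes listed for *Ccl9*. *Cxcl14* was followed by *Mir124a-1hg* (0.999), *Snx33* (0.993) and *Hacd1* (0.993), and *Cx3cl1* by *Rpl3-ps2* (0.994), *Tomm40l* (0.979) and *Gm16124* (0.972). Between 400 and 578 genes reached an r above 0.9 with each of *Ccl3*, *Ccl6*, *Ccl9* and *Cxcl14*, and 70 with *Cx3cl1*.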

How the data were processed

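Poly A-enriched RNA from the cerebella of 6 mice was sequenced as paired reads. Alignment by the authors of the trimmed reads was to GRCm39 with STAR, and features of the Gencode table were counted with featureCounts and StringTie. Not given in the sources used here are tool versions, strand settings, the handling of multimapping reads and which Gencode release was used. The authors deposited raw counts per gene, and separately FPKM values, which scale fragments to exon length and library size. Replicates were not pooled. The table columns were matched to the mice by the library names in the labels and by mouse number.

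The deposited counts went through edgeR 4.0.16 under R 4.3.3, with its default low-count filter, TMM scaling and the quasi-likelihood test, with genotype as the only term and Benjamini-Hochberg adjustment over all 16961 genes tested. Total counts lay between 6733178 and 10178218. No 2 libraries of a group were alike within sampling noise (chi-square per gene 1.35 to 3.39). Alternatives were DESeq2 1.42.0, DESeq2 size factors, no filter, a filter of 10 counts in all mice, mouse number as a block, sex as a covariate, other fold thresholds, each mouse left out, and limma 3.58.1 on log2 of FPKM plus 1 or 0.1 for genes with an FPKM of at least 0.1 in 3 mice. A choroid plexus score as a covariate was added after seeing the data. The fitting steps were tested on counts drawn from known means. Positions, promoters and coding stretches were read from GRCm39 and Gencode M39. The intervals of count ratios are exact conditional binomial intervals at 95%.

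The members and the gene lists were chosen with earlier results of these data known. Named genes are the 9 members, tested ligands, receptors and *Cx3cl1* sheddases, called signalling genes, the 3 genes most like each tested member, neighbours, close paralogs and cell type markers. *Cxcr3*, the receptor of a member, falls outside this rule and was chosen after its values were seen. A gene of the receptor list is not reported here, and the receptor counts are given without it.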

Additional observations from a re-analysis of the deposited data

How the results depend on the processing

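Of the 9 genes, 3 were called, and 2 to 4 under 16 of 17 alternatives. With at least 10 counts required in every mouse it was 0, because that filter removes *Ccl3*, *Ccl6* and *Ccl9* from the test. *Ccl3* and *Ccl6* were each called under 16 of 17 alternatives, *Ccl4* under 8, *Ccl9* under 7 and *Cxcl14* under 1, the one without a fold threshold. Without single mice the count was 2 to 4, and for signalling genes with sheddases 4 to 5. The count of receptors called other than *Ccr1* was 1, *Cx3cr1*, under all 17 alternatives. Signalling genes and sheddases called, 5 with the sheddase *Ctss*, fell to 3 with at least 10 counts and with limma on FPKM plus 1, and were 7 without a low-count filter, which added *Fgr* and *Was*. The ligands outside the set had 0 calls throughout.

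No clear pairing of the samples by mouse number was seen. The deviations of same-numbered mice correlated at 0.0329, 0.0495 and 0.145, and not every mouse correlated best with its own number. Mouse 3 was the female of each group, so number and sex cannot be told apart for it. With the number as a replicate block, 3 members, 1 receptor and 5 signalling genes were called, and 229 genes higher and 319 lower over all genes against 233 and 304 without it.

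No called log2 fold change changed sign. The sign turned in 14 values of genes that were not called. These were *Ackr1* at -0.00047 and *Ccr10* at -0.16 with the choroid plexus score, and on the 2 FPKM scales *Ackr4* at -0.085 and -0.14, *Ccl27a* at 0.081 and 0.083 and *Ccr10* at -0.033 and -0.083. Without single mice *Ackr3* ranged from -0.060 to 0.15, *Ackr4* from -0.034 to 0.13, *Ccl21b* from -0.077 to 0.24 and *Ccr10* from -0.10 to 0.25, and their negative values were seen without control mouse 1, 2 or 3 or Pcp2-cre mouse 3. The causes were not tested. Over all genes, DESeq2 called 144 higher and 225 lower, the 10-count filter 160 and 285, limma 160 and 185 or 198 and 213, the choroid plexus score 184 and 231, and no filter 291 and 393. Depth limits the low genes, since a mouse with 3 counts or fewer cannot be told from one at 0.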

Other observations

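*Ccl2*, *Ccl7* and *Ccl12*, which encode monocyte-attracting chemokines, lie within 1 stretch of chromosome 11, with gene starts 10.1 kb and 66.2 kb from that of *Ccl2*. They were picked out after their values were seen. *Ccl7* had read counts of 0, 0 and 1 in controls and 0, 0 and 6 in Pcp2-cre animals 1, 2 and 3. *Ccl12* was at 0 in all controls and had read counts of 0, 1 and 5 in Pcp2-cre animals. *Ccl2*, with 1, 2 and 4 counts in Pcp2-cre mice, was likewise highest in Pcp2-cre mouse 3, the female of that group. In counts the groups overlapped for each of the 3 genes, and none passed the filter on low counts. In FPKM *Ccl2* and *Ccl7* overlapped too. *Ccl12* was apart there, at 0, 0.0924 and 0.0693 FPKM in controls and 0.228, 0.217 and 0.895 FPKM in Pcp2-cre mice 1, 2 and 3.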
